A study of Mus musculus with 60 samples.

Results

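The 39 genes described here encode proteins of the synaptic vesicle and of the machinery that fuses it with the presynaptic membrane. They were chosen by name, with earlier results of these data known, and all 39 were among the 21999 genes of the deposited tables. Mice that lacked Glo1 (KO), the gene of glyoxalase 1, and wild-type (WT) mice received either a normal diet (1.4 mg of vitamin B6 per 100 g) or a diet lacking vitamin B6 (5 µg per 100 g) during weeks 8 to 12 of age. WT on the normal diet, WT on the lacking diet, KO on the normal diet and KO on the lacking diet held 5 mice each, and each of the 20 mice gave 1 poly(A) RNA library from the prefrontal cortex (Pfc), the striatum (Str) and the hippocampus (Hip). Per the labels, all KO mice were batch 1 and all WT mice batch 2, so genotype and batch cannot be told apart, whereas diets were compared within a batch.

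At a chemical synapse, vesicles are loaded with transmitter, held in clusters by synapsins, docked and primed at the active zone, and fused when calcium enters. Fusion is driven by SNARE proteins: synaptobrevin (VAMP) on the vesicle pairs with syntaxin and SNAP-25 on the plasma membrane. Synaptotagmins sense calcium, complexins clamp and assist the assembled SNAREs, and RIM and Munc13 proteins prepare vesicles for release. Many of these proteins come in paralogues, and neurons of different regions use different ones. The striatum is built mainly of GABAergic projection neurons, whereas glutamatergic pyramidal neurons prevail in the cortex and hippocampus.

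Library totals ranged from 7640047 to 13928265 counts and RNA integrity numbers (RIN) from 7.6 to 9.3. Glo1 had 299 to 734 counts in the 30 WT libraries and 0 to 10 in the 30 KO libraries. Markers followed the dissected regions: the dopamine receptor gene Drd1 had median RPKM values (reads per kilobase of gene length, scaled to the size of the library) of 5.03 in Pfc, 142 in Str and 1.78 in Hip, and Prox1, of dentate granule cells, 2.92, 4.13 and 32.1. Markers of the choroid plexus, which borders the hippocampus, summed to 5.4 to 1239 RPKM over 5 genes in Hip and to at most 5.56 elsewhere. Each mouse is a separate animal. In bulk tissue, fewer cells of a type and less RNA per cell cannot be told apart.

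The 250 bases before the start site are shown for 4 genes that mark the regional pattern: Syn1, Stx1a and Slc17a7, which were highest in Pfc, and Sv2c, which was highest in Str. They are from RefSeq on GRCm38.p6, 5′ to 3′ on the strand of the gene. Capitals mark the motifs found: in Syn1 the left arm of the RE1 element (TTCAGCACC, part of the site of the repressor REST) and the cAMP response element (TGACGTCA), and in the others the GC box (GGGCGG, or CCGCCC where it lies on the opposite strand).
Syn1, chrX:20920919-20921168, minus strand: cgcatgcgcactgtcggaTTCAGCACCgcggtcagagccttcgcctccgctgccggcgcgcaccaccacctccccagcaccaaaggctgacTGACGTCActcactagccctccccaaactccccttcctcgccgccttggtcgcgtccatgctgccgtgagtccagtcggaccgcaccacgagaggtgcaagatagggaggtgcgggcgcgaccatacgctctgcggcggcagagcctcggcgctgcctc
Stx1a, chr5:135023232-135023481, plus strand: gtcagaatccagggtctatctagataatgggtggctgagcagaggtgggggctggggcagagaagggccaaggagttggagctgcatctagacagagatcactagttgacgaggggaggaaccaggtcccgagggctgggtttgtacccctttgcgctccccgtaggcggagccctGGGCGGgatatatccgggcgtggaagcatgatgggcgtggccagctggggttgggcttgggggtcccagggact
Slc17a7, chr7:45163671-45163920, plus strand: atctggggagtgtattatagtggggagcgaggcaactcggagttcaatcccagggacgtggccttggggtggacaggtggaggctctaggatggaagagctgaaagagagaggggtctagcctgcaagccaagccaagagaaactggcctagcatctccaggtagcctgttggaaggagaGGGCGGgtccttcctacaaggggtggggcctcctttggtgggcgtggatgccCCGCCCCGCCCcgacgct
Sv2c, chr13:96132578-96132827, minus strand: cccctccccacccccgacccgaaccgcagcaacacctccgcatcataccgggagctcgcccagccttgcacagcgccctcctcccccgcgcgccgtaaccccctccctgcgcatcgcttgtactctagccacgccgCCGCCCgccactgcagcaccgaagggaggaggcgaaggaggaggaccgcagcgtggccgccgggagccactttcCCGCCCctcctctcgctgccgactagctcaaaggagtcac

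The RefSeq promoter table held 39 start sites for 29 of the 39 genes. GGGCGG on either strand occurred before 24 of these 39 start sites (61.5%), against 32.7% of the 32851 start sites of all genes. TATAAA occurred before 2 of the 39 (5.13%) and before 12.4% of all. Among the 29 genes with a start site, the RE1 arm and the cAMP response element were found in Syn1 only. Each occurred before 1 of the 39 start sites (2.56%), against 0.301% and 1.55% of all start sites. Genes without a start site in the table were not scanned. In Slc17a7 a pair of the GC boxes overlapped. These matches describe letters in the window and were not tested as binding sites.

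By fitted RNA level, most of the 39 genes were highest in the prefrontal cortex, and most were lowest in the striatum. By the fitted values, 27 of the 39 genes were highest in Pfc, 8 in Str and 4 in Hip, and 24 were lowest in Str. These orders were not counted over all genes, whose shares for each pair of regions are given below. For 21 genes the order was Pfc, then Hip, then Str. The 8 genes summed as markers of all neurons had the same order, with medians of 865, 759 and 679 RPKM in Pfc, Hip and Str. The 7 markers of oligodendrocytes had the reverse order, with medians of 417, 877 and 1105 RPKM. The part of either in the order of the 39 genes was not tested. Among the genes highest in Str were single paralogues of families, Sv2c (chr13:95959443-96132577 on mm10), Unc13c (chr9:73479422-74008155), Syt2 and Doc2b (chr11:75768270-75796060). Regions were compared by edgeR's quasi-likelihood test over all 60 libraries. Its p-values were adjusted by the Benjamini-Hochberg method over 13930 genes, with a threshold of 0.05. The ranks above were counted whether or not a difference passed. Syn2, Syt2 and Vamp1 did not pass in Hip against Pfc. Syt11 and Rims2 did not pass in Str against Pfc, nor Sv2a and Sypl in Str against Hip.

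Between Str and Pfc, 8 of the 39 genes were higher in Str and 29 lower, against 35.9% and 34% of all genes tested. At least 2-fold, 5 genes were higher (all genes: 6.61%) and 16 lower (all genes: 8.45%). The RPKM values of the 20 striatal and 20 prefrontal libraries did not overlap for 28 of the 39 genes, as for 18.3% of all genes. Between Hip and Pfc, 7 genes were higher and 29 lower in Hip, against 30.2% and 29.1% of all genes. Only 1 was at least 2-fold higher (all genes: 4.59%) and 3 were at least 2-fold lower (all genes: 4.35%), and 14 of the 39 did not overlap (all genes: 10.9%). Between Str and Hip, 14 genes were higher and 23 lower in Str, against 33.6% and 32.9%, with 3 at least 2-fold higher (all genes: 6.11%), 8 at least 2-fold lower (all genes: 8.34%) and 19 of the 39 without overlap (all genes: 16.2%). The median log2 fold change of the 39 genes was -0.63, -0.43 and -0.32 in these comparisons, beside 0.01, 0.01 and 0.01 for all genes tested.

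**Figure D1:**
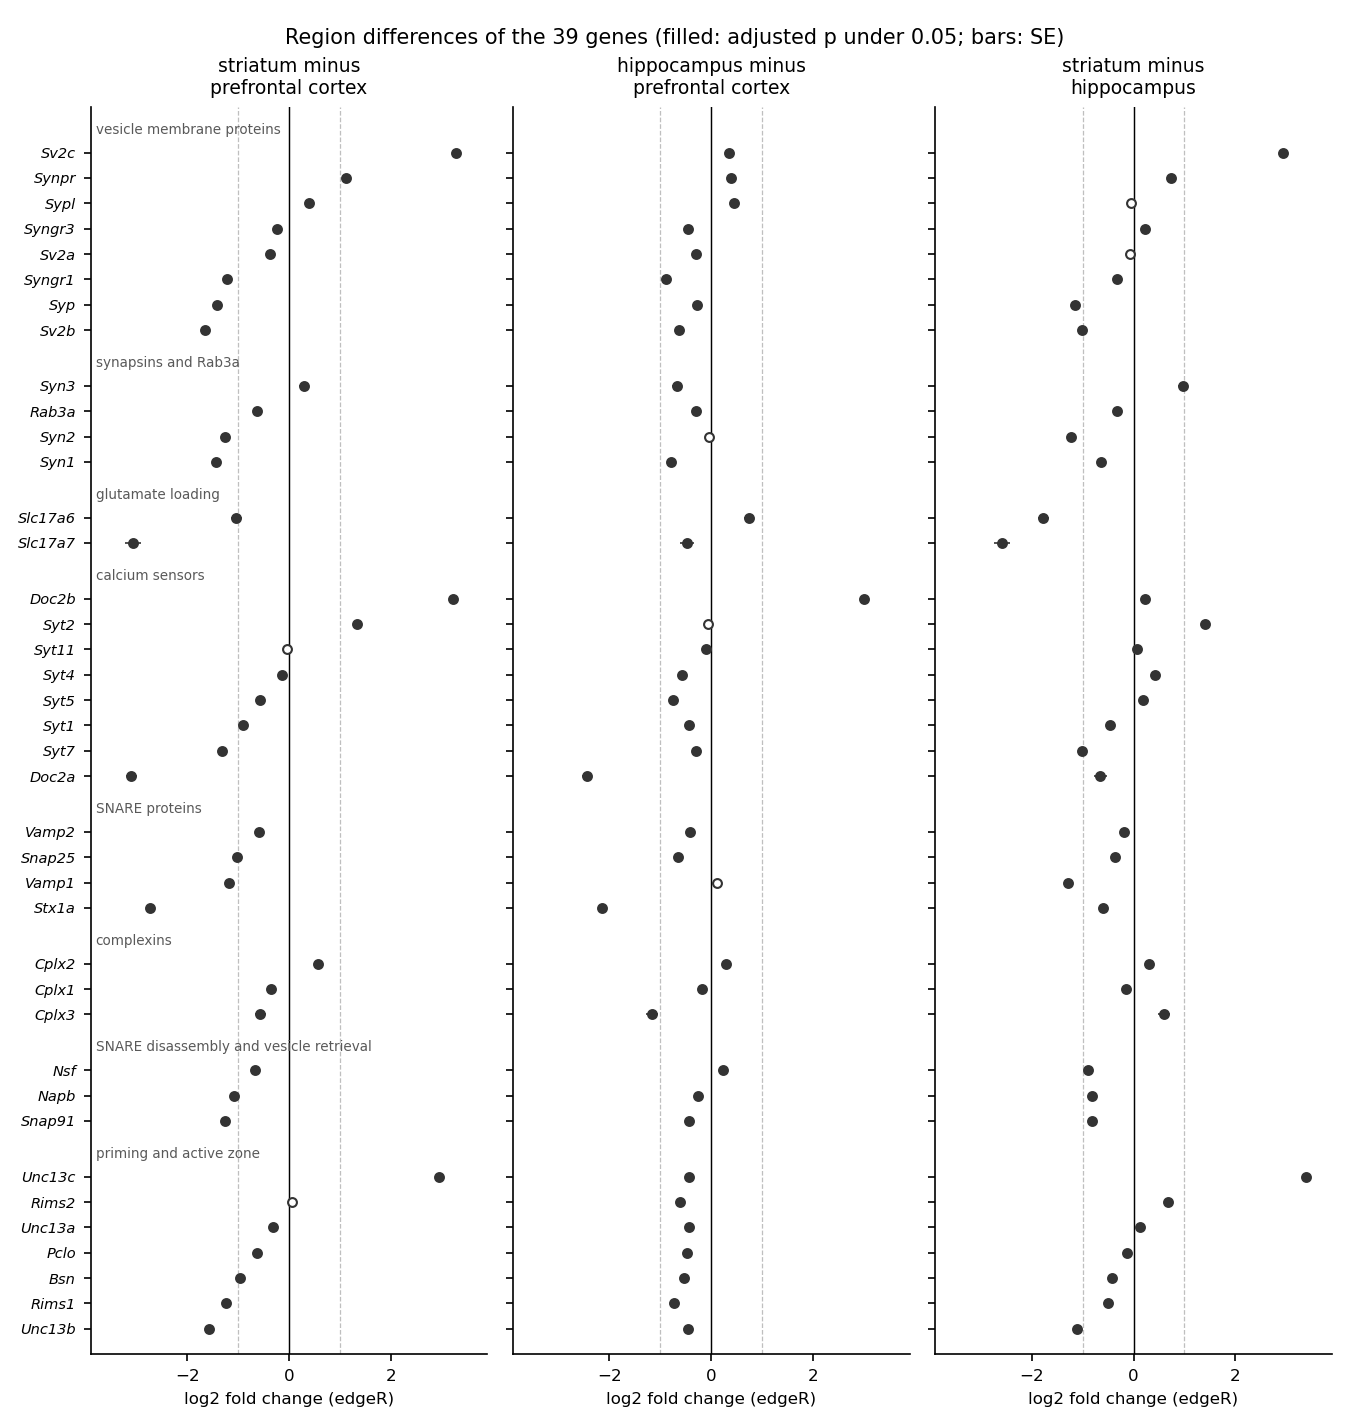
The log2 fold change of each of the 39 genes between 2 regions, grouped by role, with its standard error from edgeR; filled points passed an adjusted p of 0.05 and dashed lines mark 2-fold. Most points lie left of 0 when Str or Hip is set against Pfc, and Sv2c, Unc13c and Doc2b stand far to the right.

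Among the proteins of the vesicle membrane, 3 genes rose and 5 fell in Str against Pfc. Sv2c, the paralogue of the SV2 glycoprotein family known from basal ganglia, had lowest, median and highest RPKM values of 3.34, 4.22 and 5.31 in Pfc, 34.4, 41.4 and 50.9 in Str and 4.7, 5.52 and 7.65 in Hip. Every striatal library lay above every library of the other regions. The log2 fold change was 3.29 (SE 0.058, adjusted p = 1.45e-49) in Str against Pfc, a 9.76-fold difference, and 2.93 (SE 0.056, adjusted p = 1.18e-47) against Hip. Sv2b had 127, 143 and 156 RPKM in Pfc, 35.1, 46.2 and 55.7 in Str and 84.1, 96.7 and 108 in Hip, with no overlap between any 2 regions. Str was lower than Pfc at a log2 fold change of -1.64 (SE 0.038, adjusted p = 4.65e-43). Sv2a, the widely expressed member, varied least, from a median of 90.6 RPKM in Pfc to 68.6 in Str, and Str did not pass the test against Hip (-0.07, SE 0.033, adjusted p = 0.0685).

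Synaptophysin (Syp), the most abundant vesicle membrane protein of its family, and its relative synaptoporin (Synpr) went opposite ways. Syp had 133, 176 and 201 RPKM in Pfc, 49.7, 66.5 and 82.9 in Str and 107, 154 and 178 in Hip. The striatal libraries lay below all others, at a log2 fold change of -1.42 (SE 0.044, adjusted p = 1.05e-36) against Pfc. For Synpr the values were 8.78, 10.2 and 12.1 in Pfc, 18.1, 22.5 and 25.2 in Str and 12.2, 14.1 and 17.1 in Hip. All 3 regions were separate, and Str exceeded Pfc by 1.12 (SE 0.041, adjusted p = 6.78e-33) and Hip exceeded Pfc by 0.39 (SE 0.041, adjusted p = 1.61e-12) on the log2 scale. Sypl, encoding synaptophysin-like protein 1, which is found outside neurons as well, was higher in Hip than in Pfc by 0.44 (SE 0.067, adjusted p = 6.78e-08), with ranges of 6.08 to 9.95 and 4.41 to 7.68 RPKM that overlapped. The synaptogyrin gene Syngr1 had 35.6, 54.9 and 72.6 RPKM in Pfc, 16.3, 24.4 and 30.6 in Str and 19.5, 31.3 and 39.9 in Hip. It was lower in Hip than in Pfc, at a log2 fold change of -0.89 (SE 0.061, adjusted p = 8.18e-20), with ranges that overlapped. Syngr3 differed less, with -0.23 in Str and -0.45 in Hip against Pfc. Of limits on the reading of Syp, 33.8% of its exonic bases lie opposite the exons of Gm14703, and whether counting used the strand was not given in the sources used here.

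Of the 3 synapsin genes and Rab3a, 1 rose and 3 fell in Str against Pfc. The synapsins, which tether vesicles to one another and to actin, were led by Syn1, with 309, 398 and 465 RPKM in Pfc, 111, 147 and 188 in Str and 176, 246 and 288 in Hip. Pfc lay above both other regions in every library, and the log2 fold change was -1.44 (SE 0.056, adjusted p = 6.06e-32) in Str and -0.80 (SE 0.055, adjusted p = 1.03e-19) in Hip. Syn2 was at 68.9, 78.5 and 86.5 in Pfc, 29.4, 32 and 36.4 in Str and 66.5, 78.6 and 93.6 in Hip. Only Str stood apart: its log2 fold change against Hip was -1.22 (SE 0.031, adjusted p = 1.83e-41), while Hip against Pfc gave -0.04 (SE 0.030, adjusted p = 0.269). Syn3 was the least abundant of the 39 genes per length by median in every region, at 0.659, 0.867 and 1.29 RPKM in Pfc, 0.558, 1.13 and 1.41 in Str and 0.265, 0.617 and 0.787 in Hip. It was higher in Str than in Hip by 0.96 (SE 0.097, adjusted p = 2.03e-13), although single libraries overlapped, and 13.7% of its 75-base stretches were shared with other genes, among them Timp3, whose gene lies within it. Rab3a, the GTPase that recruits RIM to vesicles, fell by 0.63 in Str and by 0.31 in Hip on the log2 scale against Pfc, with wide ranges (57.3 to 118 RPKM in Pfc and 34.7 to 80.3 in Str).

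Both genes of vesicular glutamate transporters, which load vesicles with glutamate, were lower in Str than in either other region. Slc17a7 (VGLUT1), used by cortical and hippocampal pyramidal neurons, had 66.3, 112 and 149 RPKM in Pfc, 3.64, 13.3 and 32.3 in Str and 42.9, 84.1 and 117 in Hip. All striatal libraries lay below all others. The log2 fold change was -3.06 (SE 0.16, adjusted p = 1.07e-25) against Pfc and -2.58 (SE 0.16, adjusted p = 1.46e-22) against Hip. Slc17a6 (VGLUT2), used by thalamic and other subcortical neurons, had 3.58, 4.31 and 5.45 RPKM in Pfc, 0.671, 2.21 and 3.5 in Str and 4.53, 7.39 and 11.8 in Hip. It was higher in Hip than in Pfc by 0.74 (SE 0.10, adjusted p = 4.83e-09) on the log2 scale, and lower in Str than in Hip, at -1.77 (SE 0.11, adjusted p = 1.59e-22). The 6 thalamic markers summed to 14.9 to 17.6 RPKM in Pfc, 15.2 to 20.5 in Str and 20.3 to 31 in Hip, with the thalamic transcription factor gene Tcf7l2 at medians of 0.986, 1.06 and 1.25. The part of thalamic tissue in the hippocampal level of Slc17a6 was not tested.

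Within the striatum, Slc17a7 was high in the libraries high in markers of cortical excitatory neurons, whose 7 genes summed to 51.2 to 102 RPKM in Str and 333 to 379.6 in Pfc. The striatal library of mouse 226 was lowest in both, with 51.2 RPKM of markers and 3.64 of Slc17a7, and that of mouse 339 highest in both, with 102 and 32.3. In Hip the library highest in the same markers, that of mouse 286 at 394 RPKM, was the lowest in Slc17a7, at 42.9. Over the 20 libraries of a region, Slc17a7 and the marker sum had a correlation (r) of 0.89 in Str and -0.65 in Hip. In the 5 striatal libraries lowest in these markers Slc17a7 was 3.64 to 8.67 RPKM, and in the 5 highest it was 14.5 to 32.3. The same split gave 0.894 to 2.32 and 2.78 to 3.54 for Cplx3, 5.25 to 6.86 and 7.35 to 13 for Stx1a, 35.1 to 42.8 and 46.3 to 55.7 for Sv2b, and 0.248 to 1.14 and 1.2 to 2.02 for Doc2a. Syp, Syngr1, Syt5, Syt7, Vamp2, Snap91, Rab3a, Rims1 and Bsn were likewise higher, without overlap, in the 5 libraries highest in these markers. Rab3a, for example, had 40.2 to 53.5 and 61.5 to 68.2. The ranges of the remaining genes overlapped. How many of all genes separated in the same split was not counted, so the split does not set the 39 genes apart from others. Unc13c ran the other way, with 69.4 to 80.9 and 58.3 to 71.1, and Sv2c was 36.0 to 45.9 and 37.6 to 46.4. The 5 striatal libraries highest in cortical markers were then left out, a choice made after seeing the data. Without them 36 of the 39 genes passed in Str against Pfc, 8 higher and 28 lower. Over all genes tested, 4777 were higher and 4773 lower. Slc17a7 was at -3.34, Doc2a at -3.21 and Stx1a at -2.84 on the log2 scale. The part of cortical tissue in the striatal levels of these genes was not tested further.

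**Figure D2:**
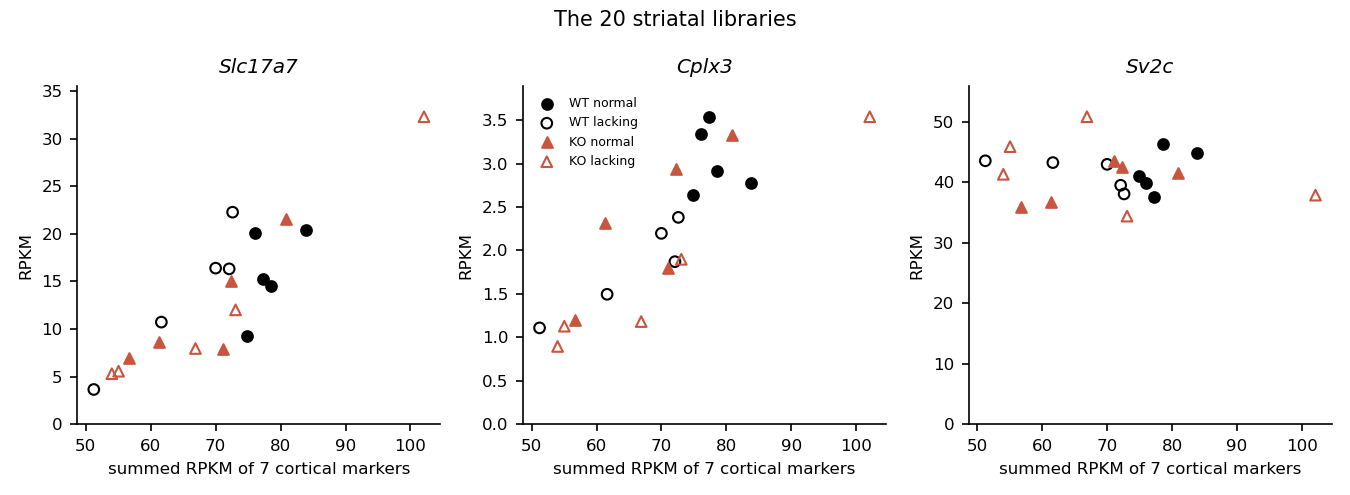
RPKM of Slc17a7, Cplx3 and Sv2c in the 20 striatal libraries against the summed RPKM of 7 markers of cortical excitatory neurons; circles are WT and triangles KO, filled for the normal and open for the lacking diet. Slc17a7 and Cplx3 are low where the markers are low and high where they are high, up to the library of mouse 339, whereas the range of Sv2c is alike at both ends.

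Of the 8 genes grouped as calcium sensors, Syt11 counted with its family, 2 rose and 5 fell in Str against Pfc, and 1 rose and 6 fell in Hip. Syt1, the main sensor of fast release in the forebrain, was at 355, 399.5 and 440.1 RPKM in Pfc, 188, 209 and 253 in Str and 272, 305 and 340.0 in Hip, with no overlap between regions. The log2 fold change against Pfc was -0.90 (SE 0.041, adjusted p = 3.03e-28) in Str and -0.43 (SE 0.041, adjusted p = 3.60e-14) in Hip. Syt2, a fast sensor known from hindbrain and inhibitory synapses, had 2.2, 3.02 and 4.03 RPKM in Pfc, 5.6, 7.97 and 9.51 in Str and 2.24, 3.02 and 3.81 in Hip. The striatal libraries were all above the rest (1.34, SE 0.067, adjusted p = 1.66e-26 against Pfc), and Hip against Pfc gave -0.07 (SE 0.068, adjusted p = 0.376). Syt7, a slow sensor of asynchronous release and facilitation, fell by 1.31 in Str on the log2 scale, from a median of 57.1 to 23.4 RPKM. Syt11, which does not bind calcium, was the most even of all, with medians of 188, 186 and 184 RPKM, and Str against Pfc gave -0.04 (SE 0.031, adjusted p = 0.286). The difference of Syt11 between Str and Hip (0.07, SE 0.031, adjusted p = 0.0418) was negative without TMM factors, which scale for library composition, and by limma, and it did not pass in 25 alternatives, DESeq2 among them.

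Doc2a and Doc2b, soluble high-affinity calcium sensors linked to spontaneous and asynchronous release, exchanged places between the regions. Doc2a (chr7:126846983-126852705) had 7.78, 10.7 and 13.9 RPKM in Pfc, 0.248, 1.21 and 2.04 in Str and 1.27, 2.08 and 3.1 in Hip, from as few as 7 counts in 1 striatal library. Every prefrontal library lay above all others, at -3.10 (SE 0.11, adjusted p = 7.63e-34) in Str and -2.45 (SE 0.10, adjusted p = 1.57e-29) in Hip on the log2 scale. Doc2b had 2.28, 3.29 and 4.4 RPKM in Pfc, 24.5, 30.6 and 35.4 in Str and 21.5, 27.9 and 34 in Hip. Here every prefrontal library lay below all others, with log2 fold changes of 3.23 (SE 0.056, adjusted p = 1.36e-49) in Str and 3.0 (SE 0.056, adjusted p = 1.50e-47) in Hip. Doc2b made up 22.6% of the RPKM summed over both genes in Pfc, 96.3% in Str and 92.8% in Hip (medians of 20 libraries). Of the exonic bases of Doc2a, 37.5% lie opposite Ino80e, whose own medians were 2.43, 2.62 and 2.48 RPKM in Pfc, Str and Hip.

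**Figure D3:**
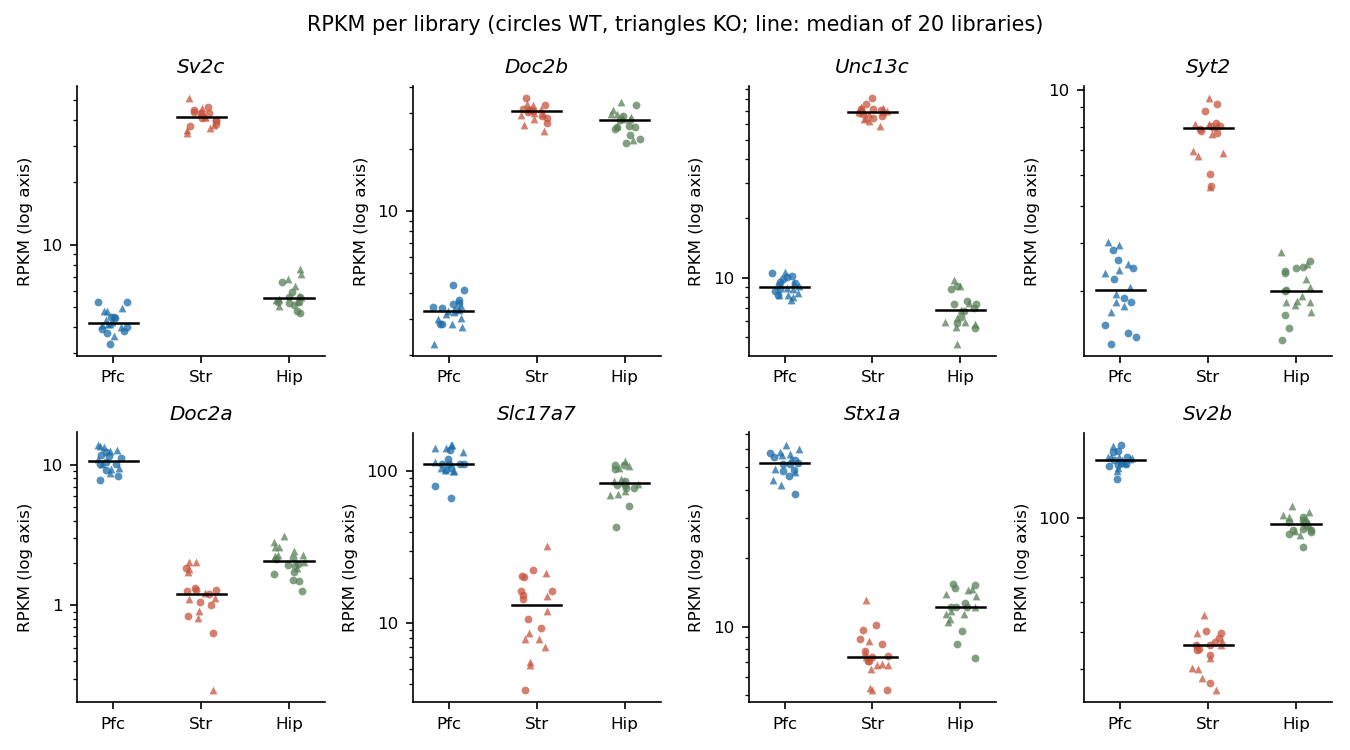
RPKM on a log axis of the 8 genes named for Str against Pfc, per library, in Pfc, Str and Hip (circles WT, triangles KO, lines medians of 20 libraries). The upper 4 genes are higher in Str than in Pfc and the lower 4 are lower, without overlap in any of the 8, and Doc2b alone is high in both Str and Hip.

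All 4 SNARE genes were lower in Str than in Pfc. Stx1a (syntaxin-1A) had 38.3, 52.1 and 62.9 RPKM in Pfc, 5.25, 7.35 and 13 in Str and 7.24, 12.1 and 15.4 in Hip. Every prefrontal library lay above all others, and the difference was -2.74 (SE 0.077, adjusted p = 5.66e-39) in Str and -2.15 (SE 0.074, adjusted p = 6.00e-34) in Hip on the log2 scale. Snap25, the most abundant of the 39 genes per length in Pfc, had 795, 894 and 1045 RPKM in Pfc, 383, 435 and 525 in Str and 538, 601 and 661 in Hip. The 3 regions did not overlap, and Str against Pfc gave a log2 fold change of -1.03 (SE 0.039, adjusted p = 3.45e-32). Vamp2, the synaptobrevin of most forebrain synapses, differed less (-0.59 in Str and -0.41 in Hip), between medians of 438 and 284 RPKM. Vamp1 had 4.84, 6.79 and 8.69 RPKM in Pfc, 2.33, 2.8 and 3.79 in Str and 5.79, 7.61 and 8.57 in Hip. Str was lower than Hip, at -1.28 (SE 0.055, adjusted p = 8.64e-30), without overlap. Vamp1 in Hip against Pfc gave 0.10 (SE 0.052, adjusted p = 0.0843), and it passed with the mouse as a block, without TMM factors, by limma, with RIN as a covariate and without mouse 325.

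Of the 3 complexins, which bind the assembled SNAREs, 1 rose and 2 fell in Str, and likewise in Hip, against Pfc. Cplx2 (chr13:54301964-54383923) had 347, 419.6 and 475 RPKM in Pfc, 555, 607 and 709.6 in Str and 447, 534 and 589 in Hip. It was the most abundant of the 39 genes in Str, where all libraries exceeded those of Pfc (0.58, SE 0.040, adjusted p = 7.18e-20). Cplx1 was lower in Str than in Pfc, at -0.35 (SE 0.059, adjusted p = 5.81e-07), with overlap. In Hip against Pfc it gave -0.19 (SE 0.059, adjusted p = 0.00429) by edgeR. That difference did not pass without TMM factors, by limma, with RIN as a covariate or in batch 1 alone. In the WT normal group alone, Cplx2 in Hip and Cplx3 in Str did not pass against Pfc. Cplx3, a complexin of retina and of deep cortical neurons, had 2.06, 3.28 and 4.18 RPKM in Pfc, 0.894, 2.26 and 3.54 in Str and 0.938, 1.55 and 2.25 in Hip. Hip was lower than Pfc, at -1.16 (SE 0.12, adjusted p = 2.33e-13), with overlapping ranges. The genes that recycle the machinery, Nsf and Napb, which take SNARE complexes apart, and Snap91, an adaptor of clathrin coats, were all lower in Str than in Pfc (-0.66, -1.09 and -1.26). Nsf was the only one of them higher in Hip than in Pfc, at 0.24 (SE 0.025, adjusted p = 2.68e-12), with 138 to 165 against 115 to 139 RPKM.

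Among the genes of priming and of the active zone, 5 of 7 fell in Str against Pfc, all 7 fell in Hip, and Unc13c alone rose in Str. Unc13c (Munc13-3), known best from cerebellar granule cells, had 7.67, 8.98 and 10.6 RPKM in Pfc, 58.3, 69.1 and 80.9 in Str and 4.62, 6.82 and 9.66 in Hip. The striatal libraries lay far above the rest, at 2.95 (SE 0.063, adjusted p = 5.78e-45) against Pfc and 3.39 (SE 0.065, adjusted p = 7.84e-48) against Hip, a 10.5-fold difference. The 4 cerebellar granule cell markers summed to 0.589 to 3.63 RPKM in Str, 12.5 to 25.9 in Pfc and 29.95 to 66.8 in Hip, and the granule cell gene Gabra6 never exceeded 0.0814 RPKM in Str. In Pfc and Hip Gabra6 reached at most 0.0426 and 0.752 RPKM, and Cbln3 at most 0.211 and 0.536. The sums there came mostly from the other markers of the list, Cbln1 and Neurod1. Unc13a (Munc13-1), the main priming factor of forebrain synapses, had medians of 31.6, 24.4 and 24.4 RPKM and a log2 fold change of -0.32 (SE 0.029, adjusted p = 3.04e-15) in Str against Pfc. Unc13b fell further, by 1.56 on the log2 scale in Str, from 3.46, 3.77 and 5.71 to 0.966, 1.27 and 1.96 RPKM (lowest, median and highest).

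Rims1 had 62.6, 69.3 and 79.5 RPKM in Pfc, 24.6, 28.1 and 36.6 in Str and 37.1, 43.5 and 48 in Hip, with no overlap between regions (-1.23, SE 0.036, adjusted p = 2.09e-38 in Str against Pfc). Its paralogue Rims2 did not pass between Str and Pfc (0.06, SE 0.036, adjusted p = 0.175) and was lower in Hip than in Pfc, at -0.62 (SE 0.037, adjusted p = 1.20e-22). The large scaffolds Bsn (bassoon) and Pclo (piccolo) fell by 0.96 and 0.62 in Str and by 0.54 and 0.48 in Hip against Pfc, on the log2 scale.

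Seen by family, the RNA shares of paralogues differed between the regions. Unc13c held 72.2% of the RPKM summed over the 3 Munc13 genes in Str (65.5 to 77.4%), but 20.02% in Pfc and 19.8% in Hip (medians), where Unc13a held 71% and 71.4%. Sv2c held 26.8% of the SV2 family in Str, against 1.74% in Pfc and 3.07% in Hip. Rims2 held 42.5% of the 2 RIM genes in Str, against 23.1% and 24.2%, and Synpr 23.3% of the synaptophysin family, against 5.26% and 8.02%. In none of these did the 20 striatal libraries overlap those of either other region. The complexin family kept Cplx2 in the lead, at 77.5%, 85.9% and 82.6% in Pfc, Str and Hip.

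**Figure D4:**
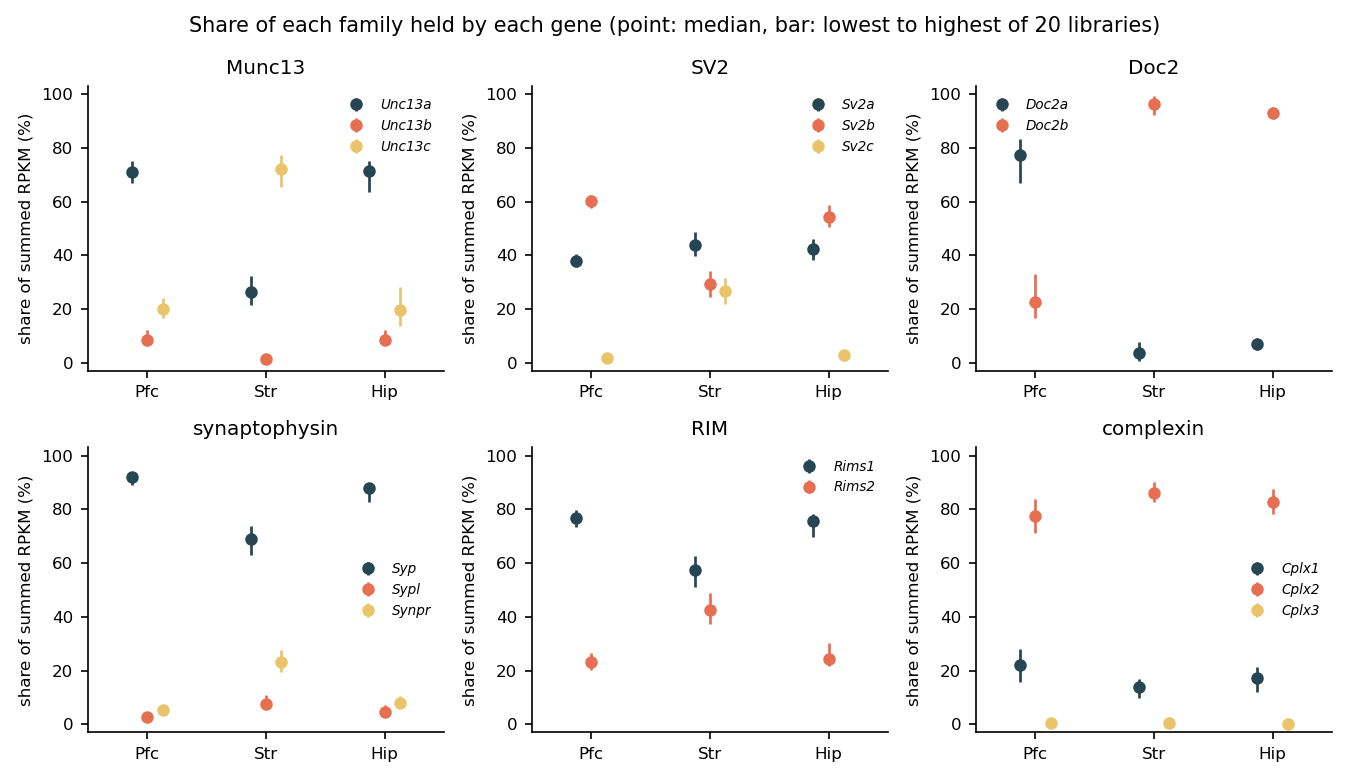
Share of each gene in the RPKM summed over its family, in percent, for 6 families in Pfc, Str and Hip; points are medians and bars run from the lowest to the highest of 20 libraries. Unc13c takes the lead in Str, Doc2b leads in Str and Hip but not in Pfc, and Sv2c is sizeable in Str alone.

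Of a list of further release genes, 89 were in the table and 87 were tested between regions. In Str against Pfc 25 were higher and 53 lower, with a median log2 fold change of -0.34 (all genes: 35.9% higher and 34% lower). In Hip against Pfc 21 were higher and 47 lower, with a median of -0.21 (all genes: 30.2% and 29.1%). In Str against Hip 28 were higher and 41 lower, with a median of -0.09 (all genes: 33.6% and 32.9%). Syt6, encoding another synaptotagmin, had medians of 8.67 RPKM in Pfc, 56.9 in Str and 1.93 in Hip, with log2 fold changes of 2.73 in Str against Pfc and 4.93 in Str against Hip. Syt17 went the other way, with 11.6, 1.22 and 14.3 RPKM and a log2 fold change of -3.23 in Str against Pfc. Slc18a3, the vesicular acetylcholine transporter of cholinergic neurons, had 8 to 45 counts in the striatal libraries, at most 2 in Pfc and at most 1 in Hip. Slc17a8 (VGLUT3) was higher in Str than in Pfc by 2.39 on the log2 scale, opposite to both glutamate transporters among the 39 genes.

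The spread between mice of one group was small for most of these genes. The median residual standard deviation of log2 CPM (counts scaled to library size) was 0.136 in Pfc, 0.167 in Str and 0.153 in Hip for the 39 genes, beside 0.196, 0.215 and 0.208 for all genes tested. It was largest for Slc17a7 in Str (0.808) and Pfc (0.266) and for Syn3 in Hip (0.343), and smallest for Unc13a in Pfc (0.058), Syn2 in Str (0.066) and Nsf in Hip (0.064). The genes were not matched for expression level, so the smaller spread was not shown to be a trait of the 39 genes.

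Few of the genes passed a test of genotype or diet. Genotype was tested within each region as the mean of both KO groups against the mean of both WT groups. Cplx2 in Pfc was the only one of the 39 genes past the threshold by edgeR, against 0.673% of all genes tested. In Str and Hip 0 of 39 passed, against 0.203% and 0.164% of all genes. At an unadjusted p under 0.05 there were 11 of 39 in Pfc, 0 in Str and 2 in Hip, against 14.1%, 5.78% and 4.24% of all genes. DESeq2 called 1 of the 39 in Pfc and 0 in the other regions, and limma called 0 in each. Over the 13223 genes tested in Pfc, DESeq2 called 230 and limma 67, against 89 by edgeR. The fitted difference was above 0 in KO for 26 of the 39 genes in Pfc, 18 in Str and 34 in Hip, with medians of 0.02, -0.01 and 0.06 on the log2 scale beside 0.00 for all genes in each region. In Hip the markers of all neurons summed to 696 to 792 and 718 to 762 RPKM in WT and 720.0 to 779.8 and 751 to 790.3 in KO on the normal and lacking diet. The 7 oligodendrocyte markers had medians of 962 and 993 RPKM in WT and 668 and 752 in KO in the same order, with overlapping ranges. By the fit, 0 of these 7 were above 0 in KO. By edgeR 6 had an unadjusted p under 0.05 and 0 passed the threshold. The part of either set of markers was not tested.

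Cplx2 in Pfc had RPKM values of 409.6, 421, 447, 465 and 475 in WT on the normal diet and 424, 445, 447, 462 and 469.9 in WT on the lacking diet. In KO mice they were 384, 390.1, 392, 418 and 457 on the normal diet and 347, 373, 384, 400.3 and 403 on the lacking diet. The KO mice on the lacking diet lay below all 10 WT mice, while those on the normal diet overlapped them. The means were 443 ± 27.7, 449.6 ± 17.6, 408 ± 30.0 and 382 ± 22.7 (SD, n = 5 each) in the same order. KO against WT gave a log2 fold change of -0.20 (SE 0.045, adjusted p = 0.0335) by edgeR. It was 0.06 (SE 0.058, adjusted p = 0.785) in Str and 0.06 (SE 0.061, adjusted p = 1.00) in Hip, and the difference of the genotype effect between regions did not pass (adjusted p = 0.69, edgeR). When 1 mouse was left out at a time, Cplx2 passed in 8 of 20 fits, with log2 fold changes from -0.22 to -0.18 and adjusted p from 0.0108 to 0.0901 over the 20 fits. The adjusted p was above the threshold without any 1 of mice 225, 241, 246, 259, 272, 273, 317, 325, 339, 368, 381 or 390. For genotype in Pfc, 3 of the 8 markers of all neurons were fitted above 0 in KO (median -0.07). By edgeR 4 of the 8 had an unadjusted p under 0.05 and 0 passed. Of the 7 astrocyte markers 3 had such a p, and 1 passed, lower in KO. Of the microglia and striatal projection neuron markers, 1 each passed, lower in KO. The part of any of these in Cplx2 was not tested.

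Among the 10 further genes at an unadjusted p under 0.05 in Pfc, Syn1, Rims1, Vamp2, Doc2b, Snap25 and Unc13c were lower in KO, with log2 fold changes of -0.18, -0.10, -0.12, -0.23, -0.11 and -0.13. Syngr1, Syngr3, Slc17a7 and Syp were higher, at 0.21, 0.19, 0.20 and 0.10. Their adjusted p ran from 0.108 to 0.351, so none passed. Syngr3 lies on chromosome 17 as Glo1 does, 5.90 Mb from it, with 21 to 26.3 RPKM in WT and 22.2 to 32.8 in KO, both fed the normal diet.

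In Hip the smallest p among the 39 genes for genotype was that of Doc2a. Its RPKM values were 1.27, 1.48, 1.74, 1.89 and 1.97 in WT on the normal and 1.52, 1.66, 1.94, 2.14 and 2.18 in WT on the lacking diet, and 1.84, 2.03, 2.23, 2.62 and 3.1 and 2.28, 2.28, 2.43, 2.62 and 2.82 in KO in the same order of diets. The KO mice on the lacking diet lay above all WT mice, and the KO mice on the normal diet overlapped them. The log2 fold change was 0.45 (SE 0.12, adjusted p = 0.235) by edgeR, which did not pass. Ino80e, which overlaps Doc2a on the opposite strand, was at 1.56 to 2.63, 2.22 to 3.38, 2.46 to 3.15 and 1.97 to 3.05 RPKM in the same groups. In Str the smallest p was that of Syt4, a synaptotagmin of dense-core vesicles, at 0.15 (SE 0.081, adjusted p = 0.74) by edgeR. It had 111, 122, 129, 143 and 151 and 124, 132, 139.7, 151 and 156 RPKM in WT and 129.6, 132, 137, 159.6 and 166 and 129, 142, 143, 152 and 176 in KO on the normal and lacking diet. All 4 groups overlapped, and 14.5% of the exonic bases of Syt4 lie opposite Gm26658.

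With both factors joined, that is, KO on the lacking diet set against WT on the normal diet, edgeR called 0 of 39 genes in each region, against 0.28% of all genes in Pfc, 0.0826% in Str and 0.0149% in Hip. At an unadjusted p under 0.05 there were 5, 2 and 2 of 39. DESeq2 called 2 of the 39 in Pfc, Syn1 and Cplx2, and 0 elsewhere, and limma called 0. Syn1 in Pfc was at 387, 427, 445, 445 and 465 RPKM in WT on the normal diet and 309, 347, 362, 373 and 386 in KO on the lacking diet. The groups did not overlap, and the log2 fold change was -0.31 (SE 0.076, adjusted p = 0.0634) by edgeR, or -0.31 with an adjusted p of 0.0211 by DESeq2. The other 2 groups overlapped both of them, at 362, 393, 407, 449 and 455 in WT on the lacking and 339.8, 368, 403, 448 and 451 in KO on the normal diet. Cplx2 in this comparison gave -0.24 (SE 0.064, adjusted p = 0.0887) by edgeR.

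The 8 genes summed as markers of all neurons were at 805 to 863 RPKM in these KO libraries and 854 to 907 in the WT libraries, and the 7 cortical excitatory markers at 333 to 376 and 348 to 378. The 7 astrocyte markers summed to 413 to 490 and 476 to 579 RPKM, with 4 of them at an unadjusted p under 0.05 and 0 past the threshold by edgeR. The part of these markers in the values of Syn1 and Cplx2 was not tested. RIN averaged 8.54 and 8.26 in the same groups.

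**Figure D5:**
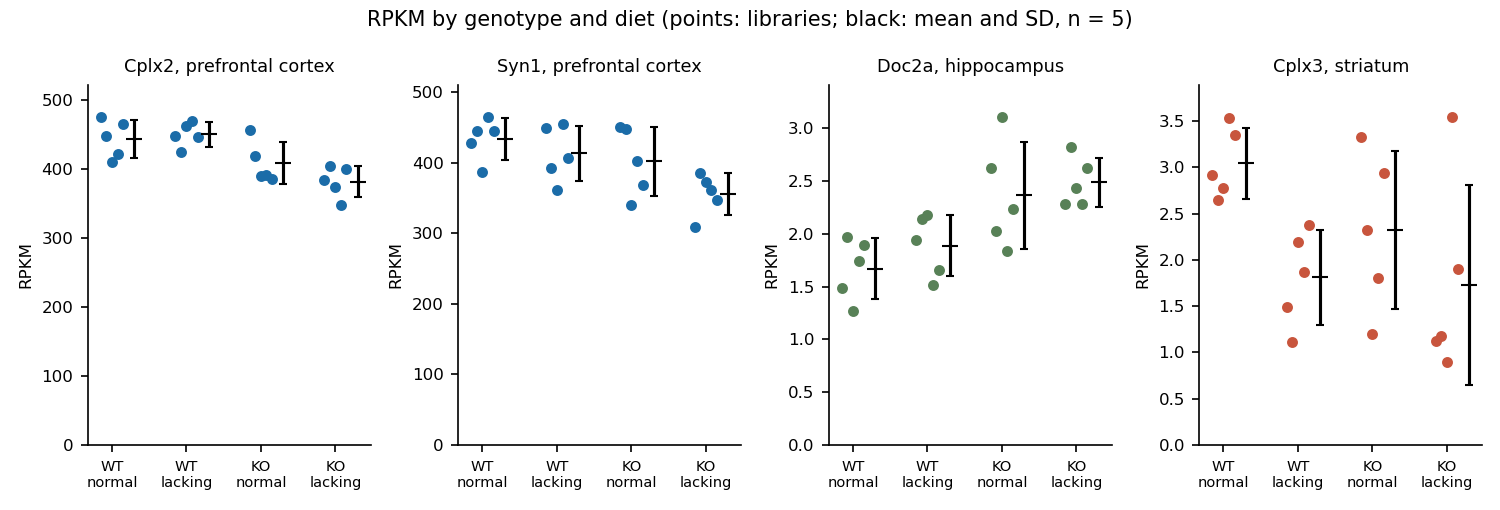
RPKM of Cplx2 and Syn1 in Pfc, Doc2a in Hip and Cplx3 in Str, for each mouse by genotype and diet, with group means and SD in black (n = 5). Cplx2 is the one gene past the threshold for genotype, and Cplx3 in Str spreads most widely within its groups.

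In Hip the smallest p of this combined comparison was again that of Doc2a, at 0.59 (SE 0.17, adjusted p = 0.758) by edgeR, without overlap between the 2 groups of 5. In Str it was that of Cplx3, at -0.78 (SE 0.28, adjusted p = 0.914), with 2.64, 2.78, 2.91, 3.35 and 3.54 RPKM in WT on the normal diet and 0.894, 1.13, 1.18, 1.9 and 3.54 in KO on the lacking diet. Of the KO mice, 4 lay below all WT mice and mouse 339, the library highest in cortical markers, was level with the highest of them.

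The diet was tested over both genotypes and in each genotype, and edgeR called 0 of the 39 genes and 0% of all genes in each of these tests, as did DESeq2 and limma for the 39. At an unadjusted p under 0.05 there were 1, 2 and 1 of 39 in Pfc, Str and Hip over both genotypes, against 3.28%, 3.06% and 2.15% of all genes. In WT there were 0, 3 and 2 (all genes: 2.27%, 2.91% and 4.03%), and in KO 1, 1 and 0 (all genes: 5.19%, 1.68% and 6.56%). Syn1 in Pfc had the smallest p over both genotypes, -0.13 (SE 0.054, adjusted p = 1.00), and in KO, -0.20 (SE 0.076, adjusted p = 0.911). The RPKM values of Syn1 on the 2 diets overlapped within each genotype. Doc2a led in Pfc of WT, at 0.26 (SE 0.13, adjusted p = 1.00), with 7.78, 8.35, 9.14, 10.5 and 11.3 RPKM on the normal and 10.1, 10.2, 11.6, 11.8 and 12.4 on the lacking diet, which overlapped.

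Cplx3 in Str had the smallest p for diet over both genotypes, -0.60 (SE 0.20, adjusted p = 1.00), and in WT, -0.78 (SE 0.28, adjusted p = 1.00). Its RPKM values in WT on the lacking diet, 1.11, 1.5, 1.87, 2.2 and 2.38, lay below all WT mice on the normal diet. The cortical excitatory markers moved the same way, with 51.2 to 72.6 RPKM in the same libraries and 74.8 to 83.9 on the normal diet, and their part in the difference was not tested. In KO, Cplx3 was at 1.2, 1.8, 2.32, 2.94 and 3.32 RPKM on the normal diet, which overlapped the lacking diet. The smallest p in Str of KO was that of Rims2, 0.14 (SE 0.067, adjusted p = 1.00), with 19.7, 19.9, 19.9, 21.2 and 21.7 RPKM on the normal and 20.1, 22.5, 22.7, 23.4 and 23.7 on the lacking diet, which overlapped through 1 mouse.

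In Hip, Syt2 had the smallest p for diet over both genotypes, 0.18 (SE 0.084, adjusted p = 0.999), and in WT, 0.27 (SE 0.12, adjusted p = 0.965). Its RPKM values in WT were 2.24, 2.42, 2.6, 3.03 and 3.47 on the normal and 3.0, 3.35, 3.38, 3.46 and 3.59 on the lacking diet. Those in KO were 2.65, 2.77, 2.93, 3.08 and 3.54 and 2.81, 2.82, 2.84, 3.23 and 3.81. The diets overlapped in both genotypes. In KO the smallest p was that of Snap25, 0.14 (SE 0.071, adjusted p = 0.719), with 556, 564, 585, 616 and 630.3 RPKM on the normal and 583, 630.1, 638, 646 and 661 on the lacking diet, which overlapped.

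The interaction asks whether the diet effect differed between KO and WT mice. It called 0 of the 39 genes and 0% of all genes in each region by edgeR, and 0 of the 39 by DESeq2 and limma. At an unadjusted p under 0.05 by edgeR there were 1, 0 and 4 of 39 in Pfc, Str and Hip, against 3.17%, 1.70% and 9.45% of all genes. The smallest p belonged to Unc13b in Pfc, 0.32 (SE 0.14, adjusted p = 1.00), Sv2b in Str, 0.24 (SE 0.14, adjusted p = 1.00), and Syngr1 in Hip, -0.34 (SE 0.14, adjusted p = 0.514). For Syngr1 in Hip the RPKM values were 19.5, 28.1, 29.6, 29.9 and 34.3 and 29.6, 29.8, 30.8, 35.3 and 39.6 in WT on the normal and lacking diet. In KO they were 30.7, 31.6, 34.5, 37.1 and 39.9 and 27.5, 31.2, 31.5, 31.6 and 31.8, so that the lacking diet had the higher median in WT and the lower in KO, with overlap in both. Unc13b in Pfc was at 3.51, 3.69, 3.72, 4.09 and 5.71 and 3.46, 3.74, 3.79, 3.87 and 3.95 in WT and at 3.52, 3.7, 3.71, 3.75 and 3.89 and 3.64, 3.88, 4.03, 4.95 and 5.02 in KO. Sv2b in Str was at 45.2, 46.3, 48.2, 49.6 and 50.4 and 36.7, 43.5, 44.7, 46.3 and 47 in WT and at 35.1, 40.2, 42.8, 47.4 and 49.9 and 37.9, 39.97, 46.2, 46.2 and 55.7 in KO. Groups overlapped within each genotype for both genes.

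Whether the genotype or diet effect differed between the 3 regions was tested over all 60 libraries. Of the 39 genes 0 passed in either test by edgeR, against 0.0215% of all genes for genotype and 0% for diet. In each test 3 of 39 had an unadjusted p under 0.05, against 6.72% of all genes for genotype and 1.86% for diet. The further release genes behaved alike within the regions: 0 of the 85, 87 and 86 tested in Pfc, Str and Hip passed for genotype by edgeR, and 0 passed for diet. For genotype 15, 6 and 7 had an unadjusted p under 0.05, against 14.1%, 5.78% and 4.24% of all genes.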

How the data were processed

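Poly(A) RNA from 60 samples (20 mice, 3 regions) was sequenced as 75-base single reads, per the labels' protocols. Reads were aligned to mm10 with STAR 2.7.1a and counted per gene with HTSeq 0.9.1, per the submitters' processing notes; the strand setting is not given in the sources used here. The authors deposited raw counts and RPKM values for 21999 genes, and every column was matched to a sample by its label. Library totals of 7640047 to 13928265 counts set the precision, and 120 pairs of replicates differed by more than counting noise (chi-square per gene of 1.97 or more).

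Differences were tested on the deposited counts with edgeR 4.0.16 (R 4.3.3; TMM factors, filterByExpr with a minimum count of 10, quasi-likelihood F-test) and adjusted by the Benjamini-Hochberg method over all genes tested, at a threshold of 0.05. Genotype, diet, both together and their interaction were tested within each region on 4 group means, and regions on 12 group means over 60 libraries. On simulated data for genotype in Pfc (13157 genes), 78% and 74% of genes changed by -0.5 and 0.5 (log2) were called. For both factors joined in Pfc (13156 genes), the same changes were called for 58% and 60%. Changes smaller than 0.5 were not simulated, so recovery at the size of Cplx2 for genotype in Pfc (-0.20) was not tested. Diet and interaction were not simulated. Levels and family shares are from the deposited RPKM. Alternatives were DESeq2 1.42.0, limma 3.58.1 on log2(RPKM + 1), no TMM factors, no low-count filter, RIN as a covariate, each batch or the WT normal group alone for regions, each mouse left out, and the mouse as a block.

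The libraries of one mouse share an animal, per the labels, so regions are paired. Residuals correlated at a mean r of 0.0468 over 60 same-mouse pairs and -0.0111 over 240 other pairs. The members and lists were chosen with earlier results of these data known. Values were given for the 4 largest rises and falls of each pair of regions and, within regions, for genes past the threshold or else the smallest p; other genes were summarised or named for their role. Stretches of 75 bases shared with other genes and exonic overlaps were counted on GENCODE vM21.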

Additional observations from a re-analysis of the deposited data

Results flagged for a closer look

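The values of the genes named within regions were searched for a single mouse far from the other 4 of its group, that is, a gap to its nearest neighbour above 0.71 of the range of the group. Of 48 groups searched 2 met this limit, and chance gives about 1 in 20. Unc13b in Pfc of WT mice on the normal diet was 5.71 RPKM in mouse 283, against 3.51 to 4.09 in the other 4 mice. Syngr1 in Hip of KO mice on the lacking diet was 27.5 RPKM in mouse 242, against 31.2 to 31.8 in the other 4 mice. Both genes had the smallest p of their region for the interaction of genotype and diet, and neither passed.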

How the results depend on the processing

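In Pfc, 1 of the 39 genes passed for genotype, against 0 by limma, 2 with RIN as a covariate and 0 to 2 when 1 mouse was left out. For both factors joined (KO on the lacking diet, WT on the normal one), 0 passed in Pfc, against 2 by DESeq2, 1 without the low-count filter and 0 to 2 with 1 mouse left out. Cplx2 had an adjusted p of 0.0737 by limma and 0.00831 by DESeq2, and Syn1 in the combined comparison 0.0211 by DESeq2, 0.0454 without the filter and 0.0281 to 0.156 with 1 mouse left out, falling below the threshold without any 1 of mice 226, 241, 283 or 368. Over all genes, 89 were called for genotype in Pfc, against 230 by DESeq2, 189 with RIN and 46 to 390 with 1 mouse left out.

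Between regions, 3 genes were at least 2-fold higher in Str than in Hip, against 5 in the WT normal group alone. With the mouse as a replicate block, 37, 37 and 37 of the 39 passed in Str against Pfc, Hip against Pfc and Str against Hip, against 37, 36 and 37 without it, and Vamp1 was the gene gained in Hip. Without the 8 hippocampal libraries above 100 RPKM of choroid plexus markers, a choice made after seeing the data, the counts were 37, 36 and 36. Over all genes, 5022 and 4774, 4243 and 4097, and 4693 and 4603 were higher and lower with the block. Without the 8 libraries they were 4940 and 4855, 3857 and 3980, and 4394 and 4286. Without TMM factors the share of higher genes among all called moved from 50.9% to 61.4% in Hip against Pfc and from 50.5% to 38.8% in Str against Hip, with 8 and 27, and 10 and 25, of the 39 genes higher and lower. Direction changed under some setting for no gene in Str against Pfc, for Syn2 and Syt2 in Hip against Pfc and for Sypl and Syt11 in Str against Hip. Whether a gene passed changed under some setting for 5 of the 39 in Str against Pfc, 6 in Hip against Pfc and 11 in Str against Hip. The fewest counts of Doc2a, 7 in 1 striatal library, limit its precision there.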
